A study of Mus musculus with 2 samples.

Results

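The cells described here are C3-TAg mammary luminal cells that carried transcripts of the hormone-sensing program. They were chosen on the measured values of each cell. A barcode was kept with at least 500 genes, at least 1000 unique molecular identifiers (UMIs) and at most 10% mitochondrially encoded UMIs. It was a member where Areg, Pgr, Esr1 and Cited1 together gave at least 5 UMIs per 10000 and the caseins Csn1s1, Csn1s2a, Csn2 and Csn3 together stayed below 0.5% of UMIs. This rule chose 2193 of the 8458 kept C3-TAg cells, which is 25.9% (exact binomial interval 24.997 to 26.9%). The 4 Areg, Pgr, Esr1 and Cited1 values and the casein values chose the members, so their levels are a description and not a result.

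FVB/NJ mice aged 3.5 months gave the sorted mammary luminal cells, which were run on a Chromium 3′ kit, with 10000 cells submitted per library. Both genotypes carried a Sox9-GFP reporter. The C3-TAg library also carried the C3-TAg transgene, in which a steroid-binding protein promoter active in mammary epithelium drives the simian virus T antigens, proteins that bind p53 and Rb. The WT library carried the reporter only. Each genotype was 1 library, the sources used here give neither the number of mice behind it nor the sort gate, and no difference has a replicate check. Reporter and T antigen transcripts have no row in the matrices and were not measured. There were 91932121 UMIs over 9575 C3-TAg barcodes and 91133082 UMIs over 8993 WT barcodes, of which 8458 and 7406 barcodes were kept at medians of 8961 and 10487 UMIs. The libraries shared 20 barcodes, 5 of them members. Levels are CPM, the UMIs of a gene scaled to the total of a group of cells after its counts were summed. All intervals are 95% intervals for counting error only, because cells of 1 library are not replicates.

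Hormone-sensing luminal cells are the mammary epithelial cells that carry the estrogen receptor (Esr1) and the progesterone receptor (Pgr). They divide rarely in the adult gland and pass the ovarian signal to neighbouring cells through secreted factors, among them the EGF receptor ligand amphiregulin (Areg), Wnt4 and RANKL (Tnfsf11). The prolactin receptor (Prlr), the pioneer factor Foxa1 and the transcriptional co-regulator Cited1 belong to the same program, while the alveolar branch of the luminal lineage is driven by Elf5 and makes milk proteins.

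Promoter sequences are shown for Areg, which contributed most of the UMIs that chose the members, and for Slpi, Tnip3 and Creb5, which were high in the members against WT cells. Each is the 250 bases before a transcript start in RefSeq (build GRCm38.p6), written 5′ to 3′ on the gene's strand in lower case, with capitals for letters that match a searched motif. The motifs reported, searched on both strands, were the cyclic AMP response element TGACGTCA and the AP-1 site TGANTCA, and no match of one overlapped a match of the other. An NF-kB form and the palindromic estrogen response element were searched earlier. They are not reported here, a choice made after their results were known. Areg lies at chr5:91139349-91139598 on the plus strand, directly upstream of the gene. Creb5 has 2 listed starts, at chr6:53287053-53287302 and chr6:53573124-53573373 on the plus strand, the latter inside the gene. Slpi at chr2:164356508-164356757 (minus strand) and Tnip3 at chr6:65590148-65590397 (plus strand) lie inside the longer gene spans of the GENCODE annotation.
Areg: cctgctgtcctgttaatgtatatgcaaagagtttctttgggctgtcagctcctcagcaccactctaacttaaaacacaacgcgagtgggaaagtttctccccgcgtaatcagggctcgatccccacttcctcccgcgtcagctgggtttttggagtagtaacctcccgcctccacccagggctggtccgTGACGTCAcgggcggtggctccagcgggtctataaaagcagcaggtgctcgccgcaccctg
Creb5, upstream start: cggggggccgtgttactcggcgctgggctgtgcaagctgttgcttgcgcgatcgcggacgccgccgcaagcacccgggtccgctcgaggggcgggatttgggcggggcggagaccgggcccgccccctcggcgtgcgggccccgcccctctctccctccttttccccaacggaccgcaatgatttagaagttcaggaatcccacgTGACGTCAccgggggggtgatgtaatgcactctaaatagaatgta
Creb5, downstream start: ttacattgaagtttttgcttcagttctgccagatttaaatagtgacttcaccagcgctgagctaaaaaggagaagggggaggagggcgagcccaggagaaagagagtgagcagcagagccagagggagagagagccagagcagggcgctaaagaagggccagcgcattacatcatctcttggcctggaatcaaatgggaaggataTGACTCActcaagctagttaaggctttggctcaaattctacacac
Slpi: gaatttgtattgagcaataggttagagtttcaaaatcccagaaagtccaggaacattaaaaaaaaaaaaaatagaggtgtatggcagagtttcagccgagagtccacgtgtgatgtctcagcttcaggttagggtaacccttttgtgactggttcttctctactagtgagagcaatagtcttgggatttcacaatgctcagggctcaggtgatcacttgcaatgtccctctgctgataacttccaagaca
Tnip3: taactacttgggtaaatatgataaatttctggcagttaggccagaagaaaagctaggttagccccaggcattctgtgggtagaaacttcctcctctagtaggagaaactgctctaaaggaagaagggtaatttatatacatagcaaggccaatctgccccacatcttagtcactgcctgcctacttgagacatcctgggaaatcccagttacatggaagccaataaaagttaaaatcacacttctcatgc
The Areg window held the cyclic AMP response element TGACGTCA at -61 to -54 from the start, and the upstream Creb5 window held the same letters at -45 to -38. These 8 letters occurred in 1.55% of the 32851 RefSeq promoter windows of this length. The downstream Creb5 window held an AP-1 match, TGACTCA, at -45 to -39, and AP-1 letters occurred in 6.75% of windows. The Slpi and Tnip3 windows held neither. A match is a description of letters only, and no match says only that these letters are not in the window.

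The members were not alike in genes outside the rule. Cells of the library were clustered with the 8 genes of the rule left out, and members were then put into 3 classes by the share of members in their cluster, a step chosen after the data were seen. A cluster of 1691 cells, 96.4% of them members, held 1630 members (74.3%), called receptor-rich here. A cluster of 372 cells, 56.2% of them members, held 209 members (9.53%), called high-UMI mixed. The other 354 members (16.1%) lay in clusters of which under 50% were members and are called Areg-only, because 310 of them (87.6%) had no UMI of Pgr, Esr1 or Cited1. Of the WT cells chosen by the same rule, 2737 of 7406 (37.0%, 35.9 to 38.1%), 2644 lay in clusters of which at least 90% were members, and these are the WT receptor-rich cells.

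The classes differed in Prlr, which the rule did not use but the clustering could, so the values are a description of the classes. At least 2 Prlr UMIs were present in 99.0% of receptor-rich, 99.0% of mixed and 6.78% of Areg-only members, and in 14.1% of the 6121 C3-TAg cells below the threshold. The stress and basal keratins Krt14 and Krt17 went the other way, with at least 2 UMIs in 1.47% of receptor-rich, 66.0% of mixed and 75.7% of Areg-only members. Both Prlr and keratin passed that count in 65.1% of mixed members. Mixed members had a median of 16518 UMIs against 7611.5 in receptor-rich and 9391.5 in Areg-only members. The doublet caller Scrublet marked 183 of the 209 mixed members (87.6%), 1 receptor-rich member and 11 Areg-only members. Called doublets were kept, and results are given for receptor-rich members apart. Another 144 C3-TAg cells (1.70%) passed the hormone-gene threshold but also the casein limit and are not members. They had a median of 19812 UMIs, and 115 were called doublets.

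**Figure D1:**
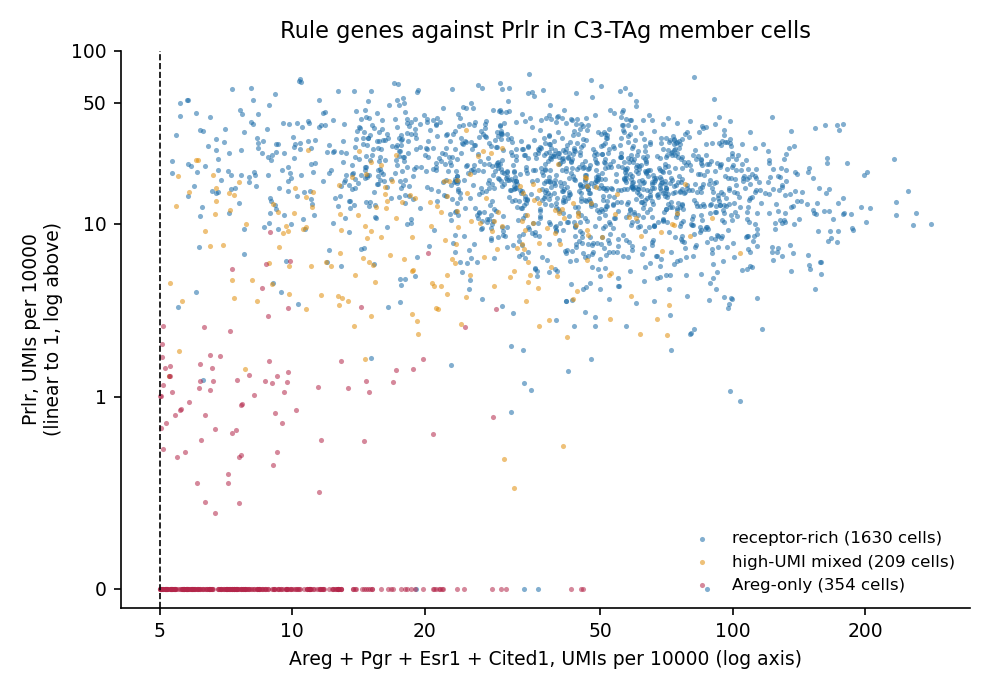
Each point is 1 of the 2193 member cells, with UMIs of the 4 rule genes per 10000 on the x axis (log scale, dashed line at the threshold of 5) and Prlr UMIs per 10000 on the y axis (linear to 1, log above). Receptor-rich members lie high in Prlr along the whole x axis, and most Areg-only members lie at 0 Prlr near the threshold.

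The values near the threshold are given as a description, since Pgr, Esr1 and Cited1 are part of the sum that was binned. Among casein-low cells just outside, with 3 to 5 rule-gene UMIs per 10000, 80.8% of 334 cells had no Pgr, Esr1 or Cited1 UMI and Prlr stood at 200 CPM. Just inside, at 5 to 7, 66.0% of 188 cells had none and Prlr stood at 422 CPM. From 40 upwards, 5.07% of 947 cells had none, Prlr stood at 1627 CPM and 95.04% of cells were in the receptor-rich cluster. Keratin Krt17 went from 726 CPM just outside and 565 CPM just inside to 26.8 CPM in that last bin. Of all members, 89 had under 5 UMIs of the hormone genes of the rule and 4 had 1 such UMI.

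The defining markers given for these cells were Areg, Pgr, Esr1, Slpi and Tnip3. Over all members Esr1, Slpi and Tnip3 stood at 43.6, 2880 and 117 CPM. In receptor-rich members Areg, Pgr, Esr1, Slpi and Tnip3 stood at 4422, 134, 59.8, 4000 and 169 CPM. In Areg-only members they stood at 892, 5.27, 3.88, 64.3 and 3.88 CPM, and in cells below the threshold at 62.1, 1.65, 2.41, 75.5 and 4.43 CPM. Areg, Pgr and Esr1 were used by the rule, and the clustering could use Slpi and Tnip3, so these levels describe the classes and test nothing. By Slpi and Tnip3 the Areg-only members stood near the cells below the threshold, against their label, and they are called by their leading rule gene. The cluster of the receptor-rich members was led by Calca, Fxyd2, Cxcl15, Gpx3, Tesc, Cited1, Tspan1, Fam25c, Plac8 and Crym, of which Calca, Fxyd2 and Cxcl15 were hormone-sensing markers outside the rule and Cited1 was a rule gene. None was an alveolar, basal or stromal marker. The name hormone-sensing-like rests on these leading genes, which describe the cluster.

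**Figure D2:**
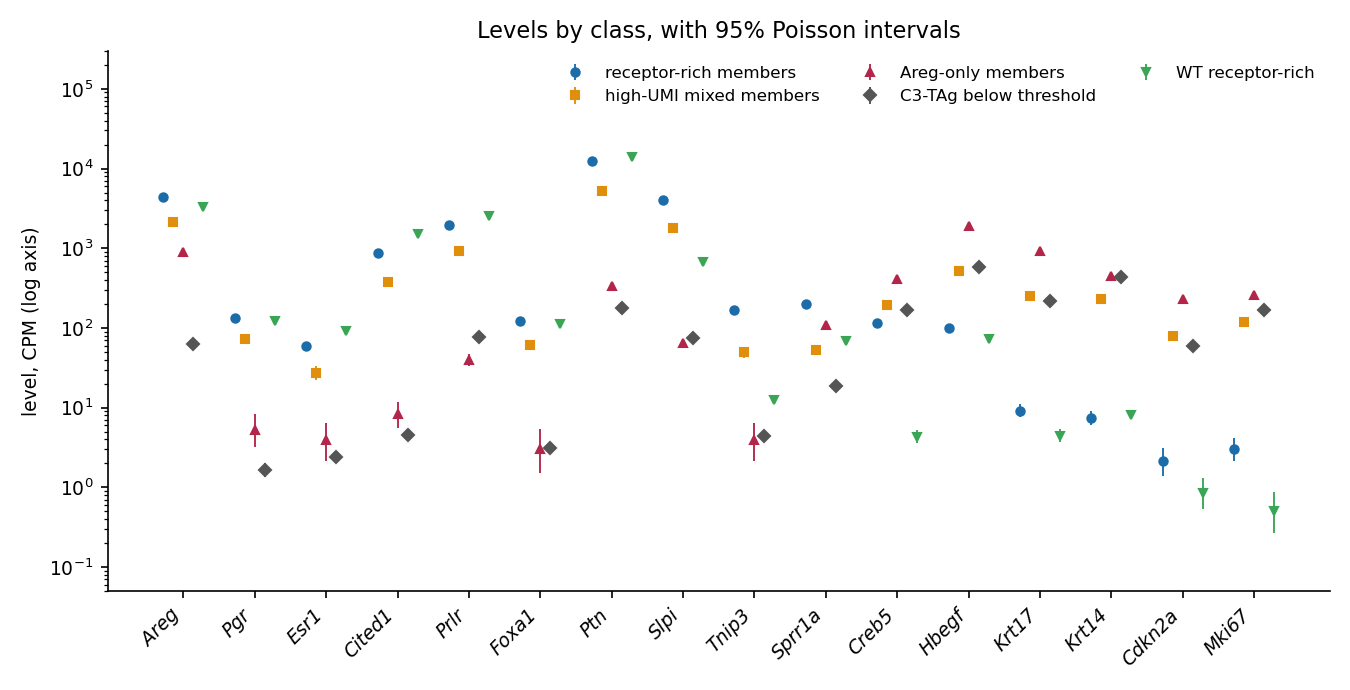
Level in CPM (log axis) of 16 genes in the 3 classes of members, in C3-TAg cells below the threshold and in WT receptor-rich cells, 1 library per genotype, with exact Poisson intervals. Prlr, Foxa1 and Ptn are high in the receptor-rich and mixed classes and low in Areg-only members, which have the highest Hbegf, Krt17, Cdkn2a and Mki67.

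Markers of other cell types were low in receptor-rich members with few exceptions. Of 17 stromal, endothelial and immune markers 7 were at 0, including Ptprc, Cd3e, Cdh5, Kdr, Col1a2, Col3a1 and Pdgfra, and 1 exceeded 20 CPM. That gene was Dcn (decorin, a matrix proteoglycan) at 176 CPM, nearly all of the list's sum of 183 CPM. Dcn was at 723 CPM in WT receptor-rich cells and 3.78 CPM in cells below the threshold. The 10 basal markers summed to 20.1 CPM with Krt5, Mylk and Oxtr at 0, against 1511 CPM in Areg-only members and 711 CPM in cells below. The 20 progenitor and alveolar markers summed to 627 CPM in receptor-rich members and 28708 CPM in cells below. Some progenitor, alveolar and basal markers, and Cdkn2a, stood in receptor-rich members at low shares of their level below the threshold. The shares were 0.936% for Elf5, 1.15% for Csn2, 1.72% for Krt14 and 1.80% for Wfdc18. For Mfge8, Cdkn2a and Krt17 they were 3.00%, 3.51% and 4.25%. The casein limit of the rule held Csn2 low in members, and the source of these transcripts was not tested. Creb5 stood at 67.9% of its level below the threshold.

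Against C3-TAg cells below the threshold, 3030 of 13733 measured genes were at least 1.5-fold higher in receptor-rich members (22.1%) and 4719 were at least 1.5-fold lower (34.4%), with a median log2 ratio over all genes of -0.18. A gene counted as measured from a sum of 20 UMIs in the pair of groups. Because the members were chosen on these cells, this contrast describes them and no test was made. The 14 hormone-sensing markers outside the rule were all higher, and the median log2 ratio was 5.27. That list was chosen with earlier results of these data known and includes Slpi and Tnip3. Prlr stood at 1955 against 76.2 CPM (log2 ratio 4.68, 4.64 to 4.73). Foxa1, which opens chromatin for the estrogen receptor, stood at 124 against 3.16 CPM (5.29, 5.08 to 5.51). Among genes with at least 50 CPM in either group and outside the rule, the highest ratios belonged to the uroplakin Upk3a (60.2 against 0.106 CPM), the fibrinogen chains Fgb (1058 against 5.04 CPM) and Fgg (911 against 7.73 CPM), the calcitonin gene Calca (106 against 0.668 CPM) and R3hdml (189 against 1.46 CPM). The secreted glutathione peroxidase Gpx3 stood at 1374 against 19.1 CPM.

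The alveolar program was at the other end. All 16 progenitor and alveolar markers outside the rule were lower in receptor-rich members, with a median log2 ratio of -5.96. Elf5 stood at 1.49 against 159 CPM (log2 ratio -6.74, -7.47 to -6.10), the iron carrier Trf at 23.6 against 2106 CPM, and lactoferrin (Ltf) at 15.2 against 1180 CPM. All 9 measured basal markers, all 20 G2M genes and all 25 S phase genes were lower, with medians of -2.78, -5.29 and -3.75. In cells below the threshold 78.6% had at least 2 UMIs of the G2M genes, against 5.89% of receptor-rich members. Without cells that had 2 or more G2M UMIs, 3008 genes were lower in place of 4719.

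Over all 2193 members, 2693 of 13885 genes were higher than below the threshold (19.4%) and 3066 lower (22.1%), with a median over all genes of -0.07. All 20 G2M genes were lower here too, with a median log2 ratio of -1.41. Of the members' UMIs, 63.2% came from receptor-rich, 19.0% from mixed and 17.8% from Areg-only cells. For Prlr these shares were 87.2, 12.3 and 0.499%. For Krt17 they were 2.65, 22.0 and 75.3%, and for Mki67, a marker of dividing cells, 2.72, 32.0 and 65.3%. A level over all members therefore blends classes for these genes.

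Pgr and Foxa1 of receptor-rich members stood within 1.5-fold of WT receptor-rich cells, whereas Esr1 and Cited1 were lower. Pgr was at 134 against 122 CPM in WT (log2 ratio 0.13, 0.04 to 0.21) and Foxa1 at 124 against 112 CPM (0.14, 0.05 to 0.23). Esr1 was at 59.8 against 90.9 CPM (-0.61, -0.72 to -0.49), Prlr at 1955 against 2564 CPM (-0.39, -0.41 to -0.37), and Cited1 at 883 against 1507 CPM (-0.77, -0.80 to -0.74). The T-box factor Tbx3 was at 54.5 against 91.6 CPM and the prolactin receptor's kinase Jak2 at 73.8 against 49.7 CPM. Of 24 receptor and cofactor genes outside the rule, 1 was higher and 2 were lower by 1.5-fold. The rule was applied to both genotypes, so the levels of its 4 hormone genes are a description here too. The background in this comparison was 11.9% of 12151 genes higher (1441 genes) and 9.66% lower (1174 genes), where all genes together had a median log2 ratio of 0.06. The WT receptor-rich cells formed 2 clusters of 1945 and 699 members, and the latter was led by immediate early and stress genes such as Atf3, Klf2 and Fosb. Median depth was 7611.5 UMIs in the C3-TAg and 9397 UMIs in the WT class. The part of depth and of the WT immediate early genes in the ratios was not tested.

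Other hormone-sensing markers were more often lower than higher in C3-TAg. Of 15 measured outside the rule, 8 were lower and 2 higher, where 9.66% and 11.9% of all genes were. Their median log2 ratio was -0.68. The 2 higher were Slpi and Tnip3, which are among the defining markers given for these cells. This list was chosen with earlier results of these data known, so the counts are a description. Ly6a (Sca-1) stood at 336 against 1014 CPM in WT (log2 ratio -1.59, -1.64 to -1.55), Stc2 (stanniocalcin, a secreted glycoprotein) at 295 against 778 CPM (-1.40, -1.45 to -1.35) and Calca at 106 against 266 CPM (-1.32, -1.41 to -1.24). Cdh13 (T-cadherin) stood at 3.29 against 51.4 CPM (-3.97, -4.45 to -3.52), with a UMI in 2.21% of C3-TAg and 26.2% of WT cells. Both WT clusters had it, at 47.7 and 61.6 CPM. Fgb and Fxyd2, which were unequal between the WT clusters (2112 and 544 CPM for Fgb, 609 and 1217 CPM for Fxyd2), stood at 1058 and 594 CPM in C3-TAg. Of 13 estrogen and progesterone target genes outside the rule, 6 were lower and 2 higher (median -0.51). Among them cyclin D1 (Ccnd1) stood at 37.8 against 116 CPM (-1.62, -1.76 to -1.48) and the clock gene Per1 at 22.5 against 16.9 CPM.

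Among genes with at least 50 CPM in either group, the 8 highest ratios over WT receptor-rich cells belonged to Creb5, Tnip3, Tesc, S100a14, Cxcl1, Slpi, Tubb2b and Lgals7. Creb5, a leucine zipper factor that binds cyclic AMP response elements, stood at 115 against 4.34 CPM (log2 ratio 4.73, 4.45 to 5.02). Tnip3, a partner of the NF-kB inhibitor A20, stood at 169 against 12.5 CPM (3.75, 3.58 to 3.93). Slpi, a secreted inhibitor of leukocyte proteases, stood at 4000 against 669 CPM (2.58, 2.56 to 2.61). Each of the 3 was higher than in either WT cluster, where Creb5 was at 2.23 and 10.2 CPM, Tnip3 at 13.0 and 11.4 CPM and Slpi at 663 and 686 CPM. The chemokine Cxcl1 stood at 66.4 against 10.2 CPM (2.71, 2.51 to 2.91), the calcium-binding S100a14 at 85.6 against 12.4 CPM (2.78, 2.60 to 2.97), and the calcium-binding tescalcin (Tesc) at 80.1 against 6.21 CPM (3.69). Pdk4, a kinase that shuts off pyruvate dehydrogenase, had a log2 ratio of 1.78. Hilpda, a lipid droplet protein induced by low oxygen, stood at 189 against 57.5 CPM. Of the 8 leading genes, Creb5, S100a14, Cxcl1, Tubb2b and Lgals7 were higher still in C3-TAg cells below the threshold. They stood at 169, 108, 327, 121 and 204 CPM there, whereas Tnip3, Tesc and Slpi stood lower, at 4.43, 1.02 and 75.5 CPM. The part of transcripts from other cells in the ratios to WT was not tested.

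**Figure D3:**
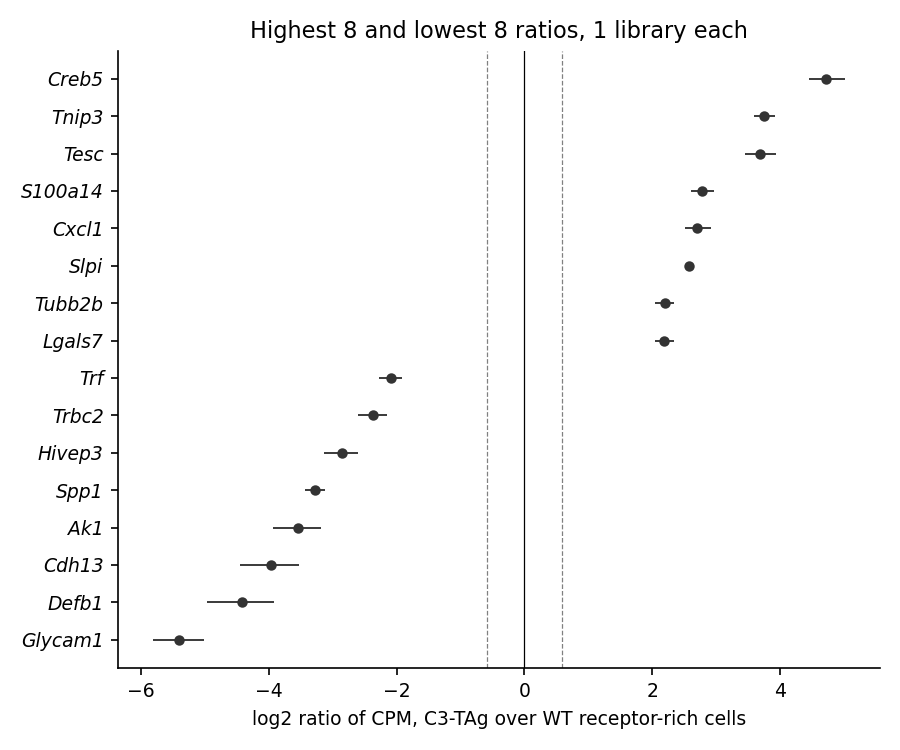
Log2 ratio of CPM, C3-TAg over WT receptor-rich cells, for the 8 genes at the top and the 8 at the bottom of the order (x axis), with exact conditional Poisson intervals that cover counting error in 1 library per genotype. Dashed lines mark 1.5-fold; ratios run from -5.40 for Glycam1 to 4.73 for Creb5.

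With the same minimum, the lowest ratios belonged to Glycam1, Defb1, Cdh13, Ak1, Spp1, Hivep3, Trbc2, Trf, Pir, Fam25c, Cxcl17 and Dcn. Spp1 (osteopontin, a secreted phosphoprotein) stood at 27.3 against 266 CPM (log2 ratio -3.28, -3.44 to -3.13), with a UMI in 18.7% of C3-TAg and 90.5% of WT cells. In cells below the threshold Spp1 stood at 1497 CPM in C3-TAg and 23381.5 CPM in WT, and Trf at 2106 and 14416 CPM. Csn2, a milk casein of the alveolar cells, had a UMI in 40.9% of C3-TAg and 75.9% of WT receptor-rich cells. The casein limit of the rule applied to both groups. The part of transcripts from other cells in the Spp1 and Trf ratios was not tested. Adenylate kinase Ak1 stood at 5.09 against 59.6 CPM, with a UMI in 3.50% against 37.1% of cells. Some of these levels rested on few cells. Glycam1, a mucin-like milk protein, was at 4.15 against 175 CPM, but 1 WT cell held 3716 of the 4483 WT UMIs, and outside the 10 highest cells of each group the levels were 3.39 and 28.7 CPM. The beta-defensin Defb1 had 33 UMIs in C3-TAg, 97.0% of them in 10 cells. WT Krt14 had 210 UMIs, 171 of them in 1 cell.

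Paracrine genes of receptor-rich members differed from WT in both directions. Of 19 measured outside the rule, 5 were higher and 7 lower, where 11.9% and 9.66% of all genes were. Their median log2 ratio was 0.23. Areg itself stood at 4422 against 3278 CPM (0.43, 0.42 to 0.45). The EGF receptor ligands on the list that were past 1.5-fold were Btc (betacellulin) at 27.3 against 9.57 CPM (1.51, 1.27 to 1.75) and Epgn (epigen) at 27.8 against 8.44 CPM (1.72, 1.47 to 1.97). Pleiotrophin (Ptn) was the most abundant secreted signal on the list at 12404 CPM, against 13929 CPM in WT. Wnt5a stood at 121 against 49.0 CPM and Wnt4 at 211 against 362 CPM. Foxa1, Ptn, Wnt4, Wnt5a and Tnfsf11 were named in this comparison after their values were seen. Tnfsf11, which encodes RANKL, was at 1.33 CPM in C3-TAg and at 2.66 and 6.19 CPM in the WT clusters.

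Interferon-response genes were more often higher than lower. Of 15 measured, 10 were higher in receptor-rich C3-TAg cells and none was lower by 1.5-fold, where 11.9% and 9.66% of all genes were. The median log2 ratio was 1.12 against 0.06 over all genes. Usp18, a protease that removes ISG15 from proteins, stood at 32.6 against 7.27 CPM (2.16, 1.91 to 2.42). Isg15 stood at 41.4 against 15.3 CPM (1.44, 1.24 to 1.63), but it was unequal between the WT clusters, at 9.73 and 30.8 CPM. Bst2 (89.9 against 115 CPM) and Irf1 (42.6 against 57.3 CPM) were within 1.5-fold. Of 13 genes of MHC class I presentation, 3 were lower and 1 was higher, beside the same shares of all genes, with a median of -0.49. The peptide transporter Tap2 stood at 106 against 235 CPM and the immunoproteasome subunit Psmb9 at 69.8 against 140 CPM.

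In the comparison with WT receptor-rich cells, 11.9% of all genes were higher and 9.66% lower. NF-kB subunits and feedback genes had 5 higher and 2 lower of 21, with a median of 0.14. The higher ones included Tnip3 and Cxcl1, and the lower ones were Csf3 (19.6 against 47.0 CPM) and the inhibitor Nfkbie (13.9 against 27.5 CPM). Of the 18 CREB-ATF genes 4 were higher and none lower, with a median of 0.21; next to Creb5 the highest ratio was that of Atf5 (48.4 against 28.2 CPM). Immediate early genes had 6 higher and 2 lower of 18. Myc was at 116 against 52.7 CPM (1.13, 1.02 to 1.24), while Fosb was at 190 against 416 CPM and Junb at 1217 against 2026 CPM. The p53 target list had 4 higher and 3 lower of 22, with Plk2 at 353 against 186 CPM and Gadd45a at 232 against 606 CPM. Of 13 squamous and barrier genes 3 were higher and 6 lower. Keratin Krt16 was at 21.5 against 5.04 CPM, while 14-3-3 sigma (Sfn) was at 679 against 1389 CPM and Ly6d at 1621 against 3146 CPM.

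Sox9 and Vtcn1, the genes of the study's title, were measured in each class. Sox9, a transcription factor of progenitor cells, was at 433 CPM in receptor-rich, 481 in mixed and 595 in Areg-only members, 421 CPM in cells below the threshold and 592 CPM in WT receptor-rich cells. Vtcn1, which encodes the T cell inhibitory ligand B7x, was at 7.76, 14.8 and 14.7 CPM in the 3 classes, 13.8 CPM below the threshold and 35.6 CPM in WT receptor-rich cells. Receptor-rich members were thus the lowest of these groups in Vtcn1, with a log2 ratio to WT of -2.20 (-2.51 to -1.90), and a UMI in 5.46% against 26.1% of cells.

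Variation within the members was read from shares of cells with a UMI after every cell had been thinned to 2000 UMIs. This left out 7 members, 2 of them receptor-rich and 5 Areg-only, and 23 cells below the threshold. Slpi was present in 68.4% of thinned members (66.4 to 70.4%, 80.5% unthinned), Creb5 in 22.0% (20.3 to 23.8%, 45.2% unthinned), Sprr1a in 15.2% (13.7 to 16.8%, 27.8% unthinned) and Tnip3 in 14.5% (13.1 to 16.05%, 28.1% unthinned). At least 2 G2M UMIs were present in 14.7% (13.3 to 16.3%, 26.5% unthinned). In cells below the threshold a Prlr UMI was present in 10.3%, at a median depth of 9429 UMIs against 8006 in members. They include cells of the receptor-rich cluster, which were 7.49% of the 334 casein-low cells with 3 to 5 rule-gene UMIs per 10000.

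The 4 genes differed in the class that held them most often. Slpi was present in 81.0% of receptor-rich and 73.7% of mixed members but 6.30% of Areg-only members, close to 6.97% below the threshold. Tnip3 was present in 17.0, 9.57 and 1.15%, with 0.738% below. Sprr1a, a cornified envelope precursor, was present in 18.1% of receptor-rich members and 1.72% of cells below. Creb5 had the opposite order, with 15.5% of receptor-rich, 33.0% of mixed and 50.1% of Areg-only members and 23.1% of cells below. Of its UMIs in the members, 40.4% came from Areg-only cells, which supplied 17.8% of all UMIs. In WT receptor-rich cells the thinned shares were 30.1% for Slpi, 1.67% for Tnip3, 7.23% for Sprr1a and 0.871% for Creb5. The unthinned shares in receptor-rich members and WT receptor-rich cells were 92.1 and 51.1% for Slpi, 32.8 and 5.86% for Tnip3, 30.9 and 16.1% for Sprr1a, and 32.8 and 2.91% for Creb5.

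**Figure D4:**
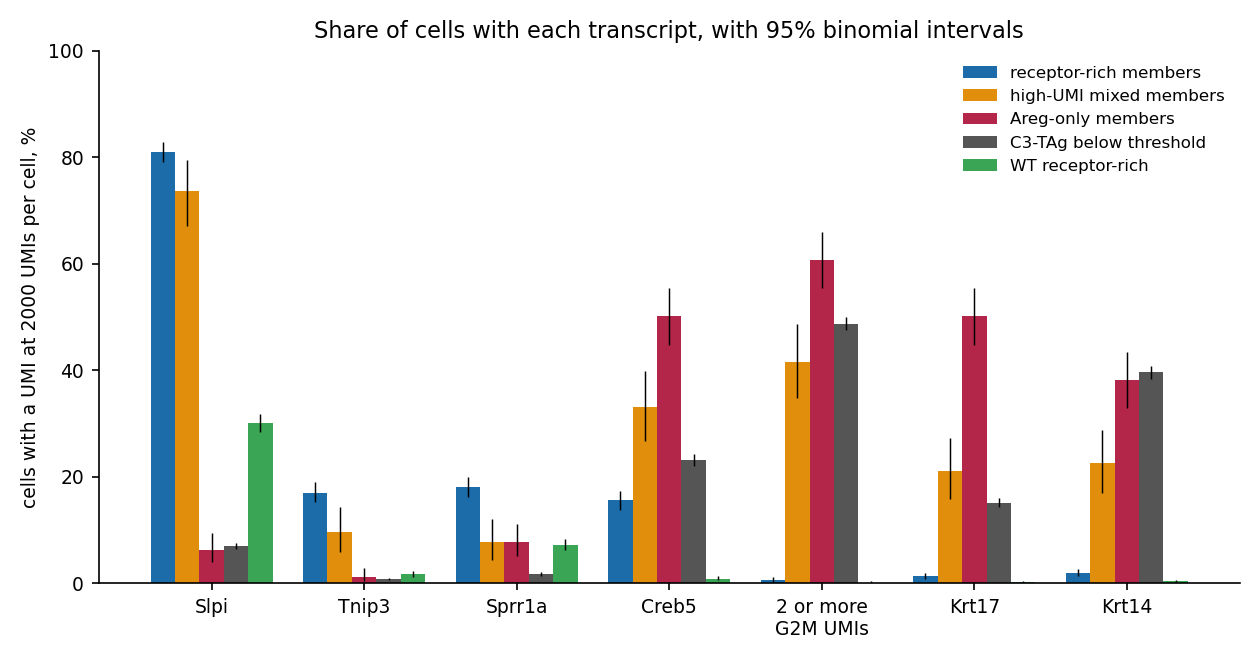
Share of cells with a UMI of each gene, or with 2 or more UMIs of G2M genes, after thinning to 2000 UMIs per cell, in the 3 classes of members, C3-TAg cells below the threshold and WT receptor-rich cells, with exact binomial intervals. Slpi, Tnip3 and Sprr1a are highest in receptor-rich members (81.0, 17.0 and 18.1%), whereas Creb5, Krt17 and G2M transcripts are highest in Areg-only members (50.1, 50.1 and 60.7%).

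Among the named secreted products, Slpi had the highest variance over mean in receptor-rich members. Over receptor-rich members its level per cell ran from 0 through a median of 21.0 to 369 UMIs per 10000, against a median of 0.769 and a highest value of 269 in WT. Areg ran from 0 through 34.3 to 274.7 per 10000, and Prlr from 0 through 17.6 to 73.2. The variance of thinned counts over their mean was 13.4 for Slpi, the highest of 2715 genes after the nuclear RNA Malat1 (22.8), followed by Areg (7.85), the stress gene Nupr1 (6.97), Fgb (6.80), metallothionein Mt1 (6.29) and Calca (6.18). Sprr1a stood at 5.13 and Fxyd2 at 5.02, and the median over genes was 1.03. In WT receptor-rich cells the value for Slpi was 11.0, at a mean of 1.30 thinned UMIs per cell against 7.87 in C3-TAg. Variance over mean depends on the mean, so these values do not rank variation relative to level.

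Receptor-rich members with and without Slpi differed little in the receptors. Thinned Prlr was at 2031 CPM in the 1319 cells with Slpi and 1977 CPM in the 309 without, and Esr1 at 64.4 and 66.3 CPM. At least 1.5-fold lower in the cells with Slpi were 551 of 8597 genes, and 905 were higher (10.5%). The leading genes were Calca (121 against 43.7 CPM), Ly6a (394 against 167 CPM), Tnip3 (172 against 79.3 CPM), Hepacam2, Stx11 and the stress keratin Krt6a (64.4 against 30.7 CPM). The lowest ratios were those of Proc, Igfbp5 (36.0 against 66.3 CPM) and Nup153. Such splits use values of the same cells and are a description, and a cell without a thinned UMI may still hold the transcript.

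Receptor-rich members with Creb5 had higher levels of some keratins and lower Cited1. In the 253 cells with a Creb5 UMI, 1226 of 8597 genes were at least 1.5-fold lower and 742 higher (8.63%). The higher were led by the actin scaffold Palld (67.2 against 10.9 CPM), Krt16 (71.1 against 16.7 CPM) and Sprr1a (573 against 162 CPM). Next came the adhesion molecule Ceacam1 (140 against 40.7 CPM), Krt6a (144 against 42.2 CPM) and the calponin Cnn2. Upk3a had the lowest ratio, at 5.93 against 53.8 CPM on 3 and 148 UMIs, followed by Krt15 and Ankhd1. Prlr stood at 2229 against 1983 CPM, Cited1 at 593 against 922 CPM, Krt17 at 19.8 against 5.09 CPM on 10 and 14 UMIs, and Krt14 at 5.93 against 10.2 CPM on 3 and 28 UMIs. Over all members the Creb5 split had 1395 of 9613 genes higher (14.5%) and 944 lower. It was led by other genes, Gja1, Pmaip1, Nppb, Adamts1, Krt80 and Ctgf, and 33.9% of its 481 cells were Areg-only members.

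The 277 receptor-rich cells with Tnip3 had 1111 genes lower and 693 higher (8.06%). The higher were led by Calcb (81.2 against 19.99 CPM), the niacin receptor Hcar2 and the adhesion molecule Icam1 (68.6 against 27.8 CPM). Parp14, Fhl2 and the cytokine Tnf (70.4 against 32.6 CPM) came next. Fxyd2, a regulator of the sodium pump, was at 305 against 716 CPM and Cited1 at 460 against 955 CPM. The 294 cells with Sprr1a had 1142 genes lower and 641 higher (7.46%). Tmcc3, Krt6a (121 against 44.2 CPM), Tm4sf1 (359 against 135 CPM), Calcb and Dusp10 were among the highest. Upk3a, Clock and Calca (45.9 against 120 CPM) were lowest. Co-detection was partial: Creb5 was present in 26.9% of cells with Sprr1a (21.9 to 32.3%) and 13.0% of those without (11.3 to 14.97%), while for Tnip3 and Sprr1a the shares were 22.1% (17.5 to 27.3%) and 15.9% (13.97 to 17.97%). Over all members the same splits gave 11.8% of genes higher with Slpi, 6.61% with Tnip3 and 5.75% with Sprr1a. Lower there were 2021, 1926 and 1699 of 9613 genes. The part of counting error in the counts of these splits was not tested.

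Areg and Fxyd2 were inversely related over receptor-rich members. Areg helped choose these cells, so its correlations are a description. Over 1628 thinned receptor-rich cells Pearson's r was -0.45 between Areg and Fxyd2, -0.27 between Areg and Prlr, 0.34 between Fxyd2 and Prlr and 0.46 between Fgb and Fgg. In 2642 WT receptor-rich cells the same pairs gave -0.35, -0.22, 0.23 and 0.45. The pair Areg and Krt19 (a simple luminal keratin) had r of 0.39 in C3-TAg and 0.13 in WT, and Krt8 with Actg1 0.48 and 0.34. For Creb5 the highest value among the genes plotted was 0.31 with Actg1, against 0.05 in WT, where few cells had a Creb5 UMI. The cells of each set share a library and, after thinning, a depth.

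**Figure D5:**
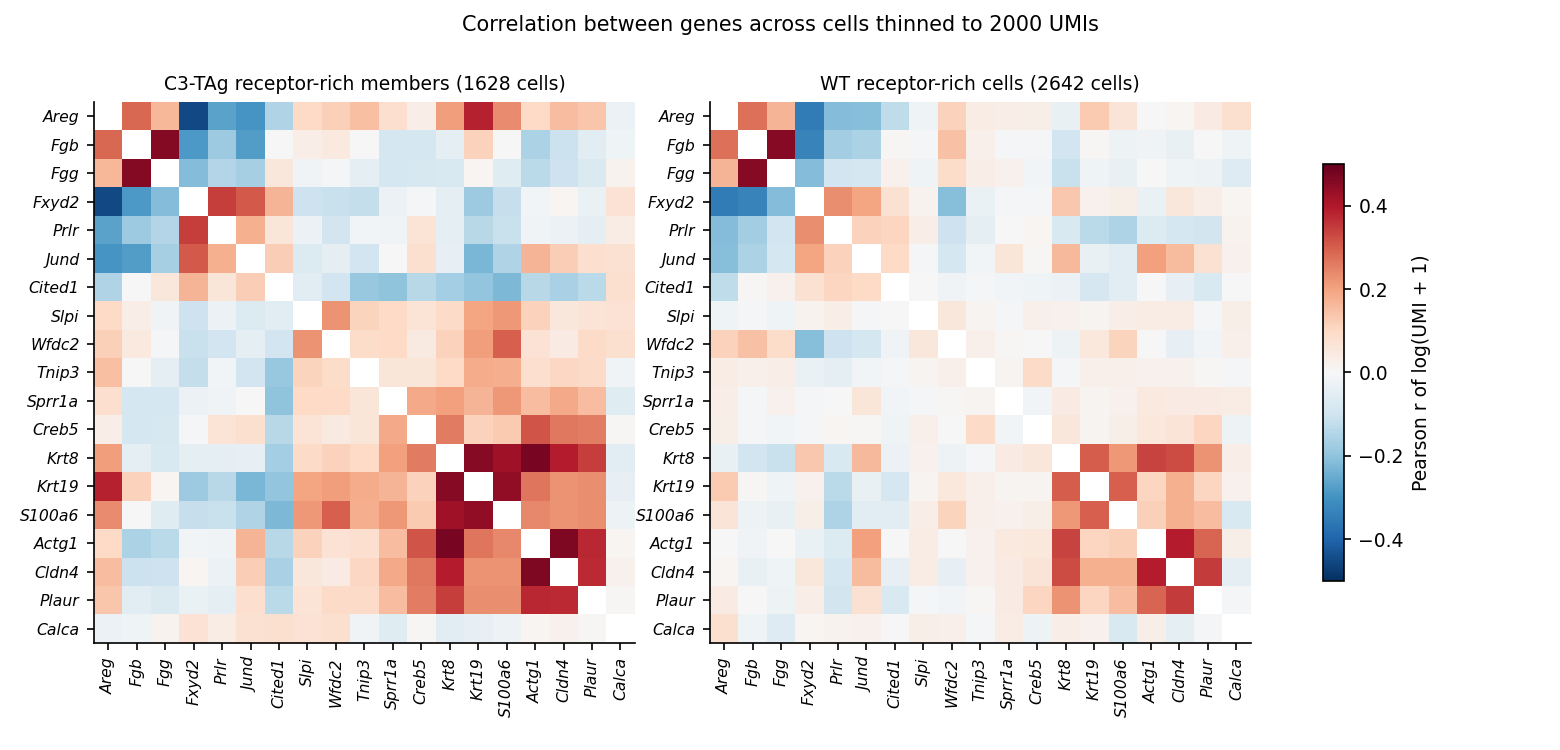
Pearson's r between 19 genes over receptor-rich cells thinned to 2000 UMIs, for C3-TAg (1628 cells, left) and WT (2642 cells, right), on log-transformed counts. Fgb with Fgg is positive in both panels (0.46 and 0.45) and Areg with Fxyd2 negative in both (-0.45 and -0.35), while Areg with Krt19 is 0.39 in C3-TAg and 0.13 in WT.

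The cycling minority of the members lay mostly outside the receptor-rich class. The clustering could use G2M genes, so these shares describe the classes. Of 322 thinned members with at least 2 G2M UMIs, 228 were Areg-only (70.8%), 84 mixed (26.1%) and 10 receptor-rich (3.11%). Of 581 members with as many unthinned, 96 were receptor-rich (16.5%). Each class was also thinned in a draw of its own, in which cells with at least 2 G2M UMIs were 60.7% of Areg-only (55.4 to 65.9%), 41.6% of mixed (34.9 to 48.6%) and 0.614% of receptor-rich members (0.295 to 1.13%), against 48.8% of cells below the threshold and 0.114% of WT receptor-rich cells. Unthinned, the shares were 84.7, 88.5, 5.89, 78.6 and 1.78%. Over all members the cycling split had 2901 of 9613 genes higher (30.2%) and 2028 lower. The higher were led by the linker histone Hist1h1b, Esco2, Kif23, Fbxo5, Ccl20 and Kif15. Fxyd2 was among the lowest, at 46.6 against 578 CPM.

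Of the 1630 receptor-rich members, 7 had at least 5 G2M UMIs (0.429%, 0.173 to 0.883%), with 5 to 27 of them per cell. All 7 had a Prlr UMI, but 4 had at least 2, a count that 99.0% of receptor-rich members passed. Of the 7, 6 had no Krt14 or Krt17 UMI, and their Slpi counts ran from 5 through a median of 56 to 159 UMIs. Their median depth was 9465 UMIs and none exceeded 10852. By the same count 4 of 2644 WT receptor-rich cells passed. Of 13 G2M genes measured between the receptor-rich groups, 12 were higher in C3-TAg and 1 was lower, with a median log2 ratio of 1.68. Of 23 S phase genes 11 were higher. Over all genes 11.9% were higher and 9.66% lower. The levels were low, however: Mki67 stood at 3.06 against 0.508 CPM on 39 and 13 UMIs, whereas it was at 259 CPM in Areg-only members. Cells below the threshold, unthinned, had at least 2 G2M UMIs in 78.6% in C3-TAg and 2.32% in WT. Levels in receptor-rich C3-TAg members were 1.82% of those below the threshold for Mki67, 1.69% for Cenpe and 2.28% for Top2a. For Krt14, a keratin that stood higher below the threshold, the level was 1.72%. For Csn2 it was 1.15%, but the casein limit of the rule held Csn2 low in members. The shares of G2M genes varied, with Bub1 at 1.01% and Ccnb1 at 1.32% but Cenpf at 7.93%, Aurka at 10.6% and Kif20a at 10.9%. Among S phase genes, Rrm2 stood at 1.19% and Mcm4 at 18.9%. The part of transcripts from other cells in the G2M counts was not tested.

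Over all members against WT members, 3222 of 12898 genes were higher (25.0%) and 1269 lower (9.84%), where all genes together had a median log2 ratio of 0.17. Every one of 20 G2M genes and 25 S phase genes was higher, with medians of 5.65 and 2.97. Among genes with at least 50 CPM in either group, the highest ratios were those of Ankrd1 (1 UMI in WT), Pclaf, Birc5, Mki67, Ctgf, Cdk1, Cdkn2a, Stmn1, Krt17, Hells, Top2a and Hist1h1b. For Pclaf the mixed and Areg-only classes gave 26.0 and 72.0% of UMIs, for Cdkn2a 26.2 and 71.5% and for Ctgf 20.6 and 77.8%. With receptor-rich cells alone the genes higher went from 3222 to 1441. The basal marker median went from 2.08 over 8 measured genes to -0.85 over 5, of which 1 was higher and 3 were lower. The latter median was the ratio of Tagln, at 1.41 against 2.54 CPM on 18 and 65 UMIs. Krt17 went the other way, at 9.17 against 4.45 CPM.

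Areg-only members were described against the cells below the threshold, since 312 of them lay in a cluster of 2537 cells of which 12.3% were members. Their Areg UMIs chose them, so this contrast is a description with no test. Of 13137 genes 2391 were higher (18.2%) and 1517 lower (11.5%), where all genes together had a median log2 ratio of 0.13. Among genes with at least 50 CPM in either group, high ratios included those of the natriuretic peptide Nppb, the activin subunit Inhba (322 against 39.9 CPM, log2 ratio 3.01), Epgn (106 against 14.7 CPM, 2.85), Sprr1a (108 against 18.6 CPM, 2.54), the prostaglandin synthase Ptgs2, Asprv1, Adamts1, Krt17 (920 against 216 CPM, 2.09), Prss23, Filip1l and Cdkn2a (228 against 60.2 CPM, 1.92), which encodes cyclin-dependent kinase inhibitors. The EGF receptor ligand Hbegf stood at 1877 against 581 CPM and Creb5 at 417 against 169 CPM. Of 14 measured squamous and barrier genes 10 were higher and none lower, with a median of 0.85, and of 24 p53 targets 11 were higher and 1 lower (median 0.57). Of 13 hormone-sensing markers outside the rule, 3 were higher and 3 lower (median -0.23). Prlr was at 39.6 against 76.2 CPM and Foxa1 at 3.05 against 3.16 CPM.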

How the data were processed

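Single-cell RNA-seq of sorted mammary luminal cells was deposited as 1 matrix of UMI counts per genotype. The authors made these raw counts with Cell Ranger 3.1.0 against mm10, per the submitters' processing notes; the sources used here do not say how barcodes were called. Counts were summed over cells, scaled to CPM and compared as ratios with exact Poisson or conditional Poisson intervals, and shares have exact Clopper-Pearson intervals, all at 95% and for counting error only. With 1 library per genotype no test between genotypes was made. A gene needed 20 UMIs over both groups and counted as higher or lower past 1.5-fold. Clusters came from Scanpy 1.11.5 and Leiden (2000 variable genes, 30 components, 15 neighbours, resolution 0.5), and doublets from Scrublet. Thinning drew 2000 UMIs per cell, in a separate draw for each group. The scripts were tested on simulated data.

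The members and the 22 gene lists were chosen with earlier results of these data known. Named genes are, per comparison, the 12 highest and 12 lowest ratios at 50 CPM or more, up to 2 members at either end of each list at 20 CPM or more, and the rule, Slpi, Creb5, Tnip3, Sprr1a, Sox9, Vtcn1, Prlr, Mki67, Cdkn2a and Krt14 genes. Within members they are the 15 most dispersed genes and, per split, the 6 highest and 3 lowest. Other genes were named after their values were seen. Some genes that this rule selects are not reported here.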

Additional observations from a re-analysis of the deposited data

How the results depend on the processing

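No paired analysis was possible because each genotype was 1 library. The values rest on counting error in 1 library per genotype, and depth limits low genes: a gene with few UMIs in a group has a wide interval. Members against cells below the threshold had 4110 genes higher with no minimum of UMIs and 1613 at 2-fold, and 1693 lower at 2-fold or 4719 with receptor-rich members alone. Members against WT members had 1635 genes higher without cells with 2 or more G2M UMIs, 1815 at 2-fold and 1441 with receptor-rich cells alone, and 1976 lower with no minimum and 553 at 2-fold. Receptor-rich members against cells below had 3008 genes lower without cells with G2M UMIs and 1929 higher at 2-fold. Against WT receptor-rich cells they had 2719 higher with no minimum, 587 higher at 2-fold and 527 lower at 2-fold. For members against WT members, direction turned without G2M cells for Nr3c1 (-0.068) and Nr4a1 (-0.17), and with receptor-rich cells alone for Nr3c1 (-0.23), Nr4a1 (-0.46), Tagln (-0.85), Krt14 (-0.14) and the basal marker median (-0.85). The basal marker median with receptor-rich cells alone covered 5 genes in place of 8. The Krt14 interval there was -0.51 to 0.22, and 1 WT cell held 171 of its 210 WT UMIs. Outside the 10 highest cells of each group, Krt14 stood at 6.31 CPM in C3-TAg and 0.942 CPM in WT. The cause of the turns was not tested.

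Among members the share with Slpi was 77.8% at 5000 UMIs, 77.5% at a threshold of 10 per 10000 and 81.0% in receptor-rich members; with Creb5 it was 36.9, 18.6 and 15.5%. The share with Tnip3 was 22.7% at 5000 UMIs and 17.0% in receptor-rich members, and with Sprr1a 23.003 and 18.1%. The share with G2M UMIs was 21.2% at 5000 UMIs, 11.8% without called doublets, 7.88% at the threshold of 10, 0.614% in receptor-rich members and 11.5% at 3 or more UMIs. Members were 21.3% of kept C3-TAg cells at the threshold of 10, 27.6% with no casein limit and 19.3% as receptor-rich members alone, and in WT 35.2, 40.7 and 35.7%. TMM scaling shifted log2 ratios by -0.18 for members against WT members and by -0.08 for the receptor-rich comparison.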
